A study of Homo sapiens with 14 samples.

Results

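The genes described here are those of the cyclin D step of the cell cycle: the D-type cyclins CCND1, CCND2 and CCND3, their kinases CDK4 and CDK6, the Cip/Kip inhibitors CDKN1A (p21), CDKN1B (p27) and CDKN1C (p57), and the INK4 inhibitors CDKN2C (p18) and CDKN2D (p19). They were taken by symbol, and all 10 were found among the 23040 genes of the deposited tables. The material was total RNA of Panc-1 and AsPC-1, established lines from human pancreatic carcinoma, and the assay was RNA sequencing. Serum-starved cells were exposed to epidermal growth factor (EGF) at 50 ng/ml or to angiogenin (ANG, also called hRNase5, a secreted ribonuclease) at 1 µg/ml for 1, 5 or 24 h. Each line also had an untreated mock library, for which the labels give no time and do not say whether serum was withdrawn. Every one of the 7 conditions had 1 library per line, 14 in all, so no condition was repeated within a line. The doses were single and unequal, so EGF and ANG are compared as 2 treatments and not at a matched dose.

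D-type cyclins are the sensors through which growth factor signals reach the cell cycle. Bound to CDK4 or CDK6 they phosphorylate the retinoblastoma protein, which then releases E2F factors to switch on the genes of DNA replication. INK4 proteins block CDK4 and CDK6 directly, whereas Cip/Kip proteins block CDK2 complexes and also bind the cyclin D complexes. Signalling from the EGF receptor through RAS and ERK is known to induce CCND1 and CDKN1A, and p27 protein is known to accumulate in cells deprived of mitogens. In pancreatic carcinoma RAS is commonly mutated, so this pathway is often active without a ligand.

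The Panc-1 libraries held an estimated 11.1 to 16.7 M reads and the AsPC-1 libraries 18.7 to 23.6 M. Levels are given as RPKM, which scales reads to transcript length in kilobases and to M mapped reads, and on a transcript of 2 kb a lone read amounts to 0.0212 to 0.045 RPKM. The epithelial markers KRT8, KRT18 and KRT19 were abundant in every library (250.2 to 892 RPKM). EPCAM, another epithelial marker, was at 4.88 to 5.58 RPKM in Panc-1 against 149 to 230 in AsPC-1. All 6 epithelial markers reached 1 RPKM in every library, but so did the mesenchymal marker VIM (1269 to 2755 RPKM). The endothelial markers PECAM1, VWF and CDH5 summed to 0.14 RPKM at most, and the 4 acinar markers to 0.98 RPKM at most. Of the fibroblast markers DCN was at 0.52 RPKM at most, while LUM was at 26.5 to 46.3 RPKM in AsPC-1. Within each line the early libraries (1 h and 5 h) separated from the late ones (24 h), and mock fell with the late ones. Labels of line, ligand and time were taken as given. Most of the patterns below follow that division. Genes shorter than 400 bp took 5.11 to 17.2% of the reads, in no fixed order of time or ligand.

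Promoter sequences were read to show what lies upstream of the members that moved together and of CDKN1A, the member with the largest difference between the ligands. RefSeq (GRCh38.p14) start-site windows were matched for 7 of the 10 genes, with 12 windows among them, and the 250 bases before each start were searched. In the window of CDK4 the E-box CACGTG, the core recognised by MYC and related factors, occurs 3 times, beginning 216, 196 and 101 bases before the start. That window overlaps annotated CDK4 exons, and its longest part free of them is 250 to 212 bases before the start. CDKN2C has 1 E-box in each of 2 of its alternative windows, and the one at chr1:50970166-50970191 lies in a window that overlaps annotated CDKN2C exons. None of the other matched windows holds an E-box, among them those of CDKN1B and CDKN2D, which moved with CDK4 and CDKN2C. The 5 stretches below run 5′ to 3′ on the strand of the gene, minus for CDK4 and plus for CDKN2C, with the E-box in capitals and 10 bases on each side.
CDK4 chr12:57752511-57752536: gtcaagcggtCACGTGtgatagcaac
CDK4 chr12:57752491-57752516: agcaacagatCACGTGgctgccatcg
CDK4 chr12:57752396-57752421: gggtggcggtCACGTGcccagaacgt
CDKN2C chr1:50960515-50960540: ttgtgcacctCACGTGgttagtcaca
CDKN2C chr1:50970166-50970191: gctgaataatCACGTGtgaatcgagg

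Of 35116 RefSeq windows of this length, 6.34% hold at least 1 E-box, and 28 windows (0.0797%) hold 3 or more. The motif reads the same on both strands. For CDKN1A and CDKN2D the part of the window free of annotated exons is shown, 154 to 57 and 250 to 81 bases before the start, on the plus and the minus strand. Capitals mark the GC box GGGCGG, bound by SP1 and its relatives, which was searched on both strands with overlapping matches counted.
CDKN1A chr6:36678560-36678657: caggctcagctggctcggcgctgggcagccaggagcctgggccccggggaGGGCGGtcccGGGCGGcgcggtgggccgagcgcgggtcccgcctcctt
CDKN2D chr19:10569060-10569229: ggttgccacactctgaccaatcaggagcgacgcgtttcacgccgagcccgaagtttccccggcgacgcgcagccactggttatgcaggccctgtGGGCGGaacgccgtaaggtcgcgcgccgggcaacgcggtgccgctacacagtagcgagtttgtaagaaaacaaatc

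The full 250 bases of CDKN1A hold 4 GC boxes and those of CDKN2D hold 2, and 42.6% of all windows hold at least 1. The letters TTTCCCGC or TTTGGCGC (E2F), TGAGTCA (AP-1) and GTAAACA (FOXO), searched on both strands, occur in none of the 12 windows. They occur in 1.93%, 4.2% and 2.98% of all windows. Motif matches describe these letters and were not tested against expression.

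To see which members carry the cyclin D step in each line, levels were first compared within families. RPKM is corrected for transcript length, so levels can be set side by side between genes. In mock Panc-1 cells the order was CDK4 (90.8 RPKM), CCND1 (64.1), CDKN1A (44.3), CDKN1B (21.1), CDK6 (17.6), CCND3 (13.5), CDKN2C (6.47), CDKN2D (3.01), CDKN1C (1.59) and CCND2 (0.29). In mock AsPC-1 cells it was CDK4 (133), CCND1 (64.6), CDKN1B (33.8), CDK6 (25.0), CDKN1A (24.3), CCND3 (14.2), CDKN2C (3.07), CDKN2D (2.32), CDKN1C (0.22) and CCND2 (0.01). With 1 mock library per line these orders have no error of their own. Over the 7 libraries of Panc-1 the ranges of CDKN1B (15.1 to 29.5 RPKM) and CDK6 (15.4 to 20.03) overlap, as do those of CCND1 (34.2 to 75.9) and CDKN1A (40.6 to 90.1).

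Of the D cyclin RPKM, CCND1 supplied 76.9 to 83.4% in Panc-1 libraries and 82.0 to 98.0% in those of AsPC-1. Of the CDK4 and CDK6 total, the CDK4 share was 83.7 to 87.2% in Panc-1 libraries and 77.6 to 87.1% in those of AsPC-1. Among the D cyclins CCND1, and of the kinases CDK4, was therefore the main transcript in every library of both lines. The Cip/Kip family was less fixed: CDKN1A made up 60.5 to 80.7% of its RPKM in Panc-1 but 41.7 to 94.9% in AsPC-1. In AsPC-1 CDKN1B was the larger part in mock (57.9%) and after 24 h of ANG (55.9%), and a small part after 1 h and 5 h of EGF (5.01 and 4.86%). Within the INK4 pair taken here CDKN2C led in every Panc-1 library (63.3 to 74.0%), while in AsPC-1 its share ran from 9.80 to 57.0%. In the 1 h and 5 h libraries of AsPC-1 the pair summed to only 0.51 to 1.25 RPKM. The share of CDKN2C there rests on low values, down to 0.05 RPKM.

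**Figure D1:**
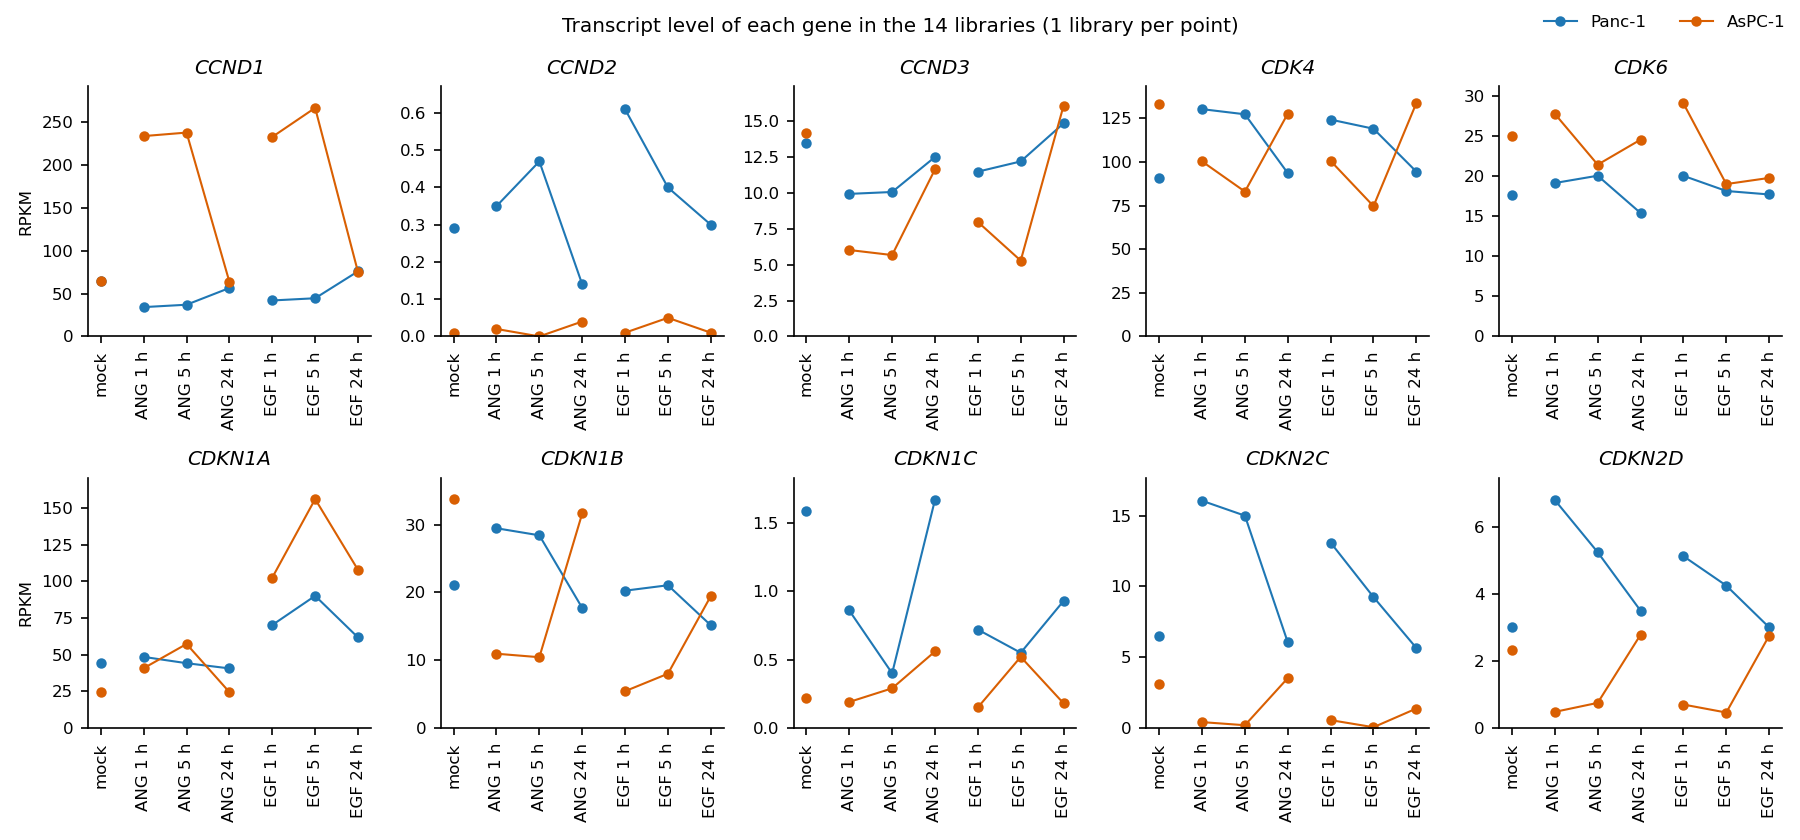
Level in RPKM (y axis, linear, from 0) of each of the 10 genes in the 14 libraries, with 1 point per library, lines joining the times of a treatment, Panc-1 in blue and AsPC-1 in orange. CCND1 stands at 233 to 267 RPKM in the AsPC-1 libraries of 1 h and 5 h and at 63.6 to 75.1 RPKM in that line's mock and 24 h libraries.

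CCND1, the main D cyclin (hg19, chromosome 11, 69455873 to 69469242, plus strand; all gene positions are spans that include introns), ran opposite ways in the lines. In AsPC-1 it was at 64.6 RPKM in mock, 234, 238 and 63.6 after 1, 5 and 24 h of ANG, and 233, 267 and 75.1 after 1, 5 and 24 h of EGF. All 4 libraries of 1 h and 5 h lay above the other 3 without overlap, at a mean 3.58 times theirs, and EGF and ANG gave nearly the same levels. In Panc-1 the values were 64.1 RPKM in mock, 34.2, 37.0 and 56.5 with ANG, and 41.9, 44.5 and 75.9 with EGF. There the 1 h and 5 h libraries were the low ones, at 0.602 times the mean of the others, again without overlap. The mock libraries of the lines were nearly equal, so the lines differed by their 1 h and 5 h libraries and in opposite directions.

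CCND3 (chromosome 6, 41902671 to 42016610, minus strand), a D cyclin expressed in many tissues, was low at 1 h and 5 h in both lines. Its values in AsPC-1 were 14.2 RPKM in mock, 6.02, 5.67 and 11.6 over the ANG course, and 7.98, 5.28 and 16.1 over the EGF course. In Panc-1 they were 13.5 RPKM in mock, 9.93, 10.1 and 12.5 with ANG, and 11.5, 12.2 and 14.8 with EGF. The early libraries lay below mock and 24 h without overlap in each line, by a wider margin in AsPC-1 (0.447 times) than in Panc-1 (0.802 times).

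CCND2 (chromosome 12, 4382902 to 4414522, plus strand), the third D cyclin, was scarce. In Panc-1 its 1 h and 5 h libraries held 0.35 to 0.61 RPKM, above the 0.14 to 0.30 RPKM of mock and 24 h without overlap. In AsPC-1 it was at 0.05 RPKM or less in all 7 libraries, close to the limit of detection, and the library of 5 h of ANG lists it at 0. It did not pass the filter on low values and was not tested.

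CDK4 (chromosome 12, 58142003 to 58146164, minus strand), the more abundant of the kinases, showed the reverse of CCND1. In Panc-1 it was at 90.8 RPKM in mock, 130, 127 and 93.6 after 1, 5 and 24 h of ANG, and 124, 119 and 94.4 over the EGF course. In AsPC-1 it was at 133 RPKM in mock, 100.3, 83.0 and 128 with ANG, and 100.6, 74.6 and 134 with EGF. Thus the 1 h and 5 h libraries were the high ones in Panc-1 (1.35 times) and the low ones in AsPC-1 (0.682 times), with no overlap in either line. The span of CDK4 overlaps that of TSPAN31 on the plus strand, and whether counting used strand is not given in the sources used here. TSPAN31 was at 10.8 to 12.04 RPKM in the 1 h and 5 h libraries of Panc-1 and 14.7 to 16.0 in the other 3. In AsPC-1 it was at 28.6 to 32.6 RPKM against 24.0 to 25.7, so in both lines it moved against CDK4.

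CDK6 (chromosome 7, 92234235 to 92465941, minus strand), the other kinase of the D cyclins, was the steadiest member. Over 7 libraries each it ranged from 15.4 to 20.03 RPKM in Panc-1 (median 18.1) and from 19.0 to 29.04 in AsPC-1 (median 24.5). AsPC-1 exceeded Panc-1 in all 7 conditions. CCND1 per CDK4 transcript, as a ratio of RPKM, was 0.486 in AsPC-1 mock and 2.31 to 3.57 at 1 h and 5 h, against 0.706 and 0.262 to 0.374 in Panc-1.

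CDKN1A (chromosome 6, 36644237 to 36655116, plus strand), whose product p21 stops CDK2 and is also a target of p53, was higher with EGF than with ANG in every pair of line and time. In AsPC-1 it was at 24.3 RPKM in mock and at 103, 156 and 108 after 1, 5 and 24 h of EGF, against 40.8, 57.3 and 24.4 with ANG. In Panc-1 it was at 44.3 RPKM in mock, 70.2, 90.1 and 61.7 with EGF, and 48.5, 44.2 and 40.6 with ANG. All 6 EGF libraries also exceeded the mock of their line. The highest EGF level came at 5 h in each line, and 24 h of ANG was level with mock in AsPC-1.

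CDKN1B (chromosome 12, 12870302 to 12875305, plus strand), which encodes p27, was low in every AsPC-1 library of 1 h and 5 h. There it was at 33.8 RPKM in mock, 10.95, 10.4 and 31.6 after 1, 5 and 24 h of ANG, and 5.42, 8.0 and 19.5 over the EGF course. The 4 early libraries did not overlap the others and averaged 0.308 times their level. In Panc-1 it was at 21.1 RPKM in mock, 29.5, 28.4 and 17.7 with ANG, and 20.3, 21.1 and 15.1 with EGF. In that line the early and late libraries overlapped, since only the early ANG libraries were high. EGF was below ANG at all 3 times in both lines. The ratio of CCND1 to CDKN1B RPKM in AsPC-1 was 1.91 in mock, 2.01 and 3.86 at 24 h, and 21.3 to 42.9 at 1 h and 5 h, while in Panc-1 it ran from 1.16 to 5.01.

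CDKN1C (chromosome 11, 2904448 to 2906995, minus strand), which encodes p57, was scarce. It reached 1 RPKM only in the mock (1.59) and 24 h ANG (1.67) libraries of Panc-1, was at 0.40 to 0.93 in that line's other libraries, and at 0.15 to 0.56 in AsPC-1. It passed the filter through Panc-1 alone, so any test of it between the lines was bound to lean that way.

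CDKN2C (chromosome 1, 51434367 to 51440309, plus strand), which encodes the INK4 protein p18, was high early in Panc-1 and low early in AsPC-1. Panc-1 had 6.47 RPKM in mock, 16.1, 15 and 6.05 after 1, 5 and 24 h of ANG, and 13.1, 9.25 and 5.65 with EGF. AsPC-1 had 3.07 RPKM in mock, 0.41, 0.19 and 3.52 with ANG, and 0.55, 0.05 and 1.37 with EGF. The early libraries were 2.2 times the others in Panc-1 and 0.113 times in AsPC-1, without overlap. The lowest AsPC-1 value, 0.05 RPKM, is worth only a few reads.

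CDKN2D (chromosome 19, 10677138 to 10679655, minus strand), which encodes the INK4 protein p19, had the same shape. Panc-1 had 3.01 RPKM in mock, 6.82, 5.26 and 3.51 with ANG, and 5.14, 4.26 and 3.01 with EGF. AsPC-1 had 2.32 RPKM in mock, 0.48, 0.75 and 2.79 with ANG, and 0.70, 0.46 and 2.76 with EGF. Its early libraries averaged 1.69 times the others in Panc-1 and 0.228 times in AsPC-1, again without overlap.

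Counted over the 9 tested members, the early libraries lay wholly above mock and 24 h for 4 members in Panc-1 (CDK4, CDK6, CDKN2C and CDKN2D) and for 1 in AsPC-1 (CCND1). They lay wholly below for 3 in Panc-1 (CCND1, CCND3 and CDKN1C, of which CDKN1C passed the filter through mock and 24 h libraries alone, so that it was bound to lean this way) and for 5 in AsPC-1 (CCND3, CDK4, CDKN1B, CDKN2C and CDKN2D). Of all 13427 genes tested, 20.9% and 25.4% lay wholly above and below in Panc-1, and 19.4% and 31.5% in AsPC-1. A clean division of this kind was thus common across the genome. In whole-culture RNA, a shift in how many cells are in a state and a shift in RNA per cell cannot be told apart.

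Whether the lines differed in their course was tested as the 24 h against 1 h difference, AsPC-1 minus Panc-1, over 4 courses of line and ligand (limma on log2(RPKM + 1), Benjamini-Hochberg over 13427 genes). CDKN2C, CDKN1B, CDKN2D and CDK4 rose from 1 h to 24 h in AsPC-1 relative to Panc-1, and CCND1 fell. This test used no mock library. The labels give mock no time, and the mock libraries fell with those of 24 h. Whether the difference follows time on a ligand was therefore not tested. In all, 5 of 9 tested members passed, beside 36.0% of all genes, so the share of members called stands near a high background. CCND1 differed by -2.51 ± 0.13 (SE; adjusted p = 0.000155). Its 24 h minus 1 h difference was 0.71 and 0.84 in Panc-1 with ANG and EGF, and -1.86 and -1.62 in AsPC-1. CDKN1B differed by 2.11 ± 0.20 (adjusted p = 0.000399), with differences of -0.70 and -0.40 in Panc-1 against 1.45 and 1.67 in AsPC-1.

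The INK4 genes moved with CDKN1B. CDKN2C differed by 2.33 ± 0.35 (limma adjusted p = 0.00251) and CDKN2D by 1.96 ± 0.19 (adjusted p = 0.00043), and the fold of both understates the ratio at their low AsPC-1 levels. The kinase CDK4 differed by 0.81 ± 0.13 (limma adjusted p = 0.00306), a smaller change at a high level. For each of these 5 genes both courses of Panc-1 went one way and both of AsPC-1 the other. CCND3 (0.56 ± 0.19, adjusted p = 0.0521), CDK6 (-0.12 ± 0.17), CDKN1A (-0.11 ± 0.28) and CDKN1C (-0.13 ± 0.27) did not pass. CDKN1C entered through mock and 24 h libraries of Panc-1 alone, so its estimate here was bound to lean and carries no weight. Taking 5 h as the early time, a choice made after the data were seen, 6 members passed, the same 5 and CCND3 (0.91 ± 0.19, adjusted p = 0.00867), beside 37.3% of all genes. Over all genes the main comparison called 2978 higher and 1860 lower in AsPC-1, and 2375 and 3028 once each library was centred on its median. Centring moved the median of all genes from 0.07 to -0.10 and left the calls and directions of the members as they were.

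**Figure D2:**
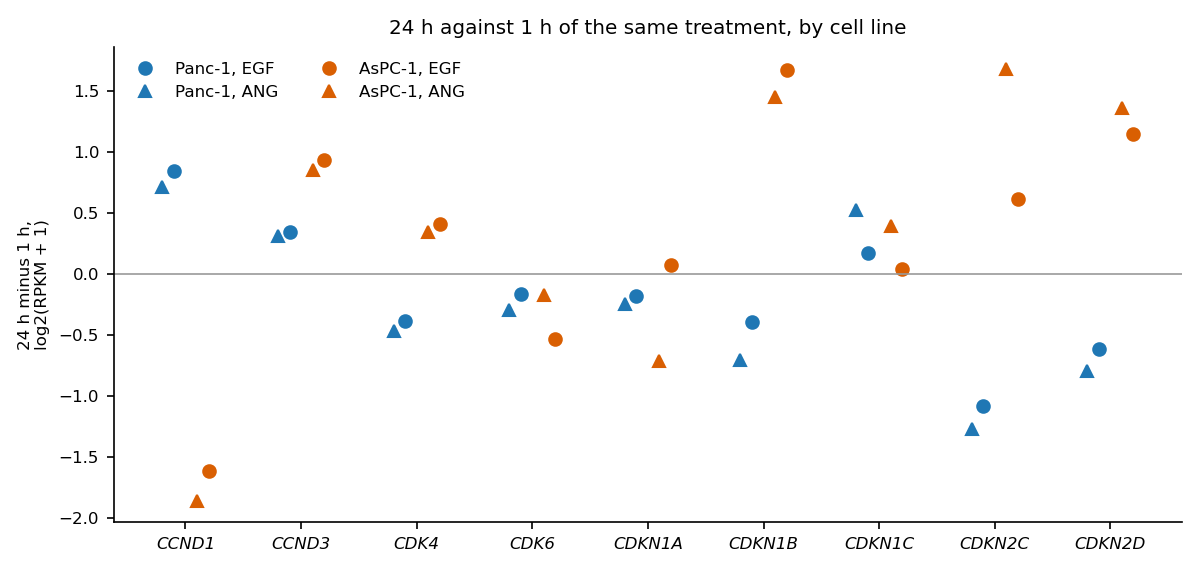
Difference between 24 h and 1 h on the log2(RPKM + 1) scale (y axis) for the 9 tested genes (x axis), 1 point per course, circles for EGF and triangles for ANG, Panc-1 in blue and AsPC-1 in orange. CCND1 is above 0 in Panc-1 (0.71 and 0.84) and below 0 in AsPC-1 (-1.86 and -1.62), and CDK4, CDKN1B, CDKN2C and CDKN2D are the other way round.

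The rest of the pathway was examined in the same comparison, from a list of 39 genes that act around or after the cyclin D step. Of these, 30 rose from 1 h to 24 h in AsPC-1 relative to Panc-1 and 1 fell. Their median was 1.78 against 0.07 over all genes. Of all 13427 genes 36.0% were called in either direction, 2978 higher and 1860 lower. In the RB, E2F and DP list 9 of 13 genes rose, with the largest changes in the repressors E2F8 (3.53 ± 0.43, limma adjusted p = 0.00104) and E2F7 (2.58 ± 0.26) and the activators E2F2 (2.83 ± 0.25) and E2F1 (2.45 ± 0.35). E2F4, the E2F factor of resting cells, was the 1 that fell (-0.95 ± 0.11, adjusted p = 0.000907). In the list of cyclins E and A with CDK2, 4 of 5 rose, led by CCNA2 (4.01 ± 0.30, adjusted p = 0.000193), while CCNE1 did not pass (0.22 ± 0.23, adjusted p = 0.474). The CDK-activating kinase had 2 of 3 genes called, MNAT1 (1.31 ± 0.19) and CDK7 (0.57 ± 0.13).

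Of 6 genes of cyclin D and p27 protein turnover 3 rose, where 2978 of all 13427 genes did. Whether these shares differ was not tested. The largest change was that of CKS1B, the cofactor of SKP2 in p27 degradation (2.54 ± 0.31, limma adjusted p = 0.00107). SKP2 itself did not pass (0.51 ± 0.17, adjusted p = 0.0523). All 12 E2F targets of DNA replication rose (median 2.32), most of all RRM2, a subunit of ribonucleotide reductase (4.70 ± 0.32, adjusted p = 0.000167). RRM2 was at 32.1 RPKM in Panc-1 mock and 125 to 133 at 1 h and 5 h, against 63.2 and 4.18 to 10.4 in AsPC-1. All 12 genes of the G2/M phase rose as well (median 4.08), with TOP2A, the topoisomerase of dividing cells, at 5.12 ± 0.36 (adjusted p = 0.000176). These proliferation lists moved in the direction of CDK4 and of the inhibitors CDKN1B, CDKN2C and CDKN2D, and opposite to CCND1.

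**Figure D3:**
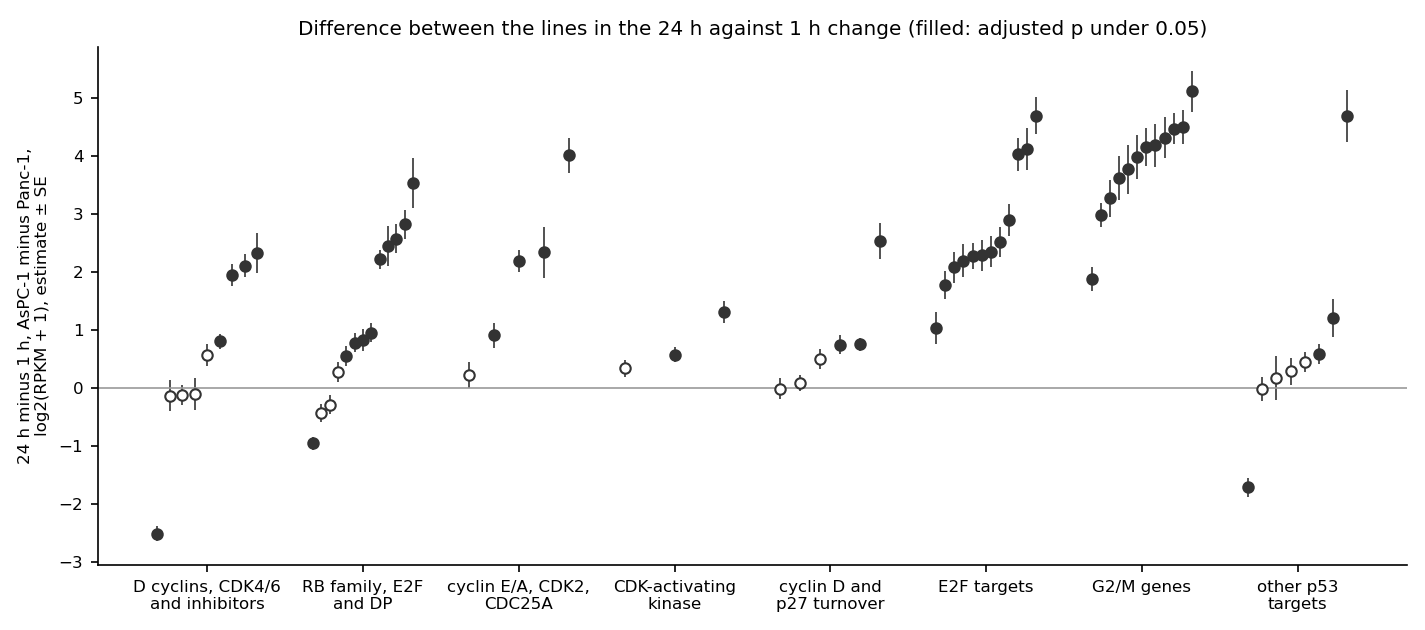
Estimate and standard error (y axis, log2(RPKM + 1)) of the 24 h against 1 h difference, AsPC-1 minus Panc-1, for the 9 tested genes of the cyclin D step and 7 lists of other cell cycle and p53 target genes (x axis), sorted within each list and filled where adjusted p was under 0.05. All 12 E2F targets and all 12 G2/M genes lie above 0 and are filled, and CCND1, at -2.51, is the lowest gene shown.

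Averaged over lines and ligands, no member differed between 24 h and 1 h: 0 of 9 passed by limma, beside 6.36% of all genes called. At an unadjusted p under 0.05 stood 2 members, and 3381 of all 13427 genes. CCND3 was higher at 24 h in 4 of 4 courses (0.61 ± 0.19, adjusted p = 0.0894) and CDK6 lower in 4 of 4 (-0.29 ± 0.12, adjusted p = 0.17). With 5 h as the early time CCND3 passed (0.73 ± 0.19, limma adjusted p = 0.0449), 1 member of 9 beside 9.85% of all genes. Between 5 h and 1 h no gene at all was called, with 149 genes and 0 members at an unadjusted p under 0.05. Whether the course depended on the ligand gave no call either (0 of 9 members, 151 genes at an unadjusted p under 0.05). CCND1 was higher at 5 h than at 1 h in 4 of 4 courses and CDKN1A in 3. CDK4 and CDKN2C were lower in 4 of 4 and CDK6 and CDKN2D in 3, and the other members were split.

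To compare the ligands, EGF was set against ANG within 6 pairs of line and time. CDKN1A was higher with EGF in 6 of 6 pairs, by 1.16 ± 0.19 (SE), and CDKN1B was lower in 6 of 6, by -0.51 ± 0.09. Neither passed the threshold (limma adjusted p = 0.0842 and 0.0891). Of 9 tested members 0 passed, where 0.156% of all genes were called. At an unadjusted p under 0.05 stood 5 members, and 2146 of all 13427 genes. The pair differences of CDKN1A were 0.53, 1.01 and 0.59 in Panc-1 at 1, 5 and 24 h, and 1.31, 1.43 and 2.10 in AsPC-1. EGF exceeded ANG in 6 of 6 pairs for 5.62% of all genes and lay below it in 6 of 6 for 4.57%.

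The differences of CDKN1B were -0.52, -0.42 and -0.21 in Panc-1 and -0.90, -0.35 and -0.68 in AsPC-1. The D cyclins leaned towards EGF, CCND1 by 0.23 ± 0.06 (5 of 6 pairs, limma adjusted p = 0.173) and CCND3 by 0.23 ± 0.07 (5 of 6, adjusted p = 0.217). CDKN2C leaned towards ANG (-0.33 ± 0.13, 5 of 6 pairs, adjusted p = 0.287). CDK4 (-0.04 ± 0.05) and CDK6 (-0.05 ± 0.07) were split, with 3 of 6 pairs each way. The CDKN1A difference was larger in AsPC-1 by 0.90 ± 0.23, which did not pass as a dependence on line (limma adjusted p = 0.563; 0 of 13427 genes called, 1040 at an unadjusted p under 0.05).

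Without the 24 h libraries the CDKN1A difference was 1.07 ± 0.15 (limma adjusted p = 0.106), and over the 24 h pairs alone it was 1.35 ± 0.37 (adjusted p = 0.865), both fits added after the data were seen. Of 8 other targets of p53, 0 passed where 0.156% of all genes were called, and their median was -0.03. SESN2 was higher with EGF in 6 of 6 pairs (0.62 ± 0.18, limma adjusted p = 0.193) and TP53INP1 was lower in 6 of 6 (-0.33 ± 0.08, adjusted p = 0.159). Whether CDKN1A differed from these genes was not tested. Of the 39 pathway genes 0 passed, beside the same 0.156% of all genes, and the median was 0.02. Among 6 immediate-early genes, the transcripts that ERK signalling raises first, 2 passed, FOSL1 (0.91 ± 0.09, limma adjusted p = 0.0193) and IER2 (0.85 ± 0.11, adjusted p = 0.0382).

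**Figure D4:**
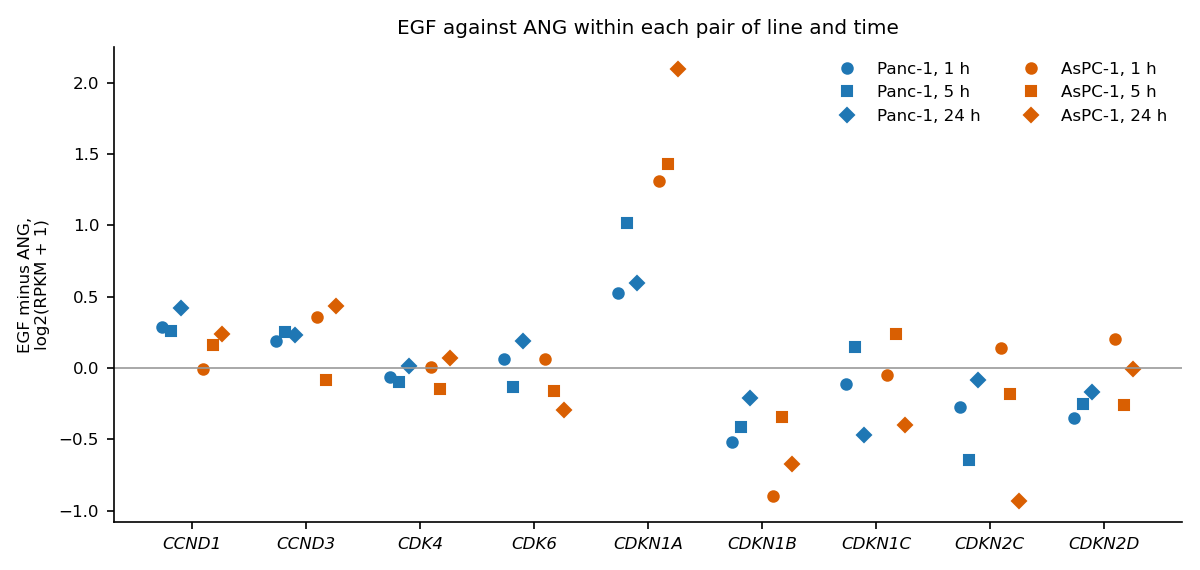
Difference between EGF and ANG on the log2(RPKM + 1) scale (y axis) for the 9 tested genes (x axis), 1 point per pair of line and time, circles for 1 h, squares for 5 h and diamonds for 24 h, Panc-1 in blue and AsPC-1 in orange. All 6 points of CDKN1A lie above 0 (0.53 to 2.10) and all 6 of CDKN1B below it (-0.90 to -0.21).

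Against mock, each condition was tested over the 2 lines. None of the 9 tested members passed in any of the 6 comparisons by limma. The share of all genes called was 0.663, 4.22 and 0.0% for EGF and 0.0819, 0.112 and 0.0% for ANG at 1, 5 and 24 h. Between 0 and 2 members had an unadjusted p under 0.05 in each. So did 202 of 13427 genes after 24 h of ANG, the fewest, and 2995 after 5 h of EGF, the most. CDKN1A came closest after 5 h of EGF (1.82 ± 0.43, adjusted p = 0.0538) and stood at 1.34 ± 0.43 after 1 h (adjusted p = 0.165) and 1.29 ± 0.43 after 24 h (adjusted p = 0.68). A member that moves in opposite directions in the lines counts as spread in this test, as for CCND1 after 1 h of EGF (-0.60 in Panc-1 and 1.83 in AsPC-1).

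Within a line each treated library was set against 1 mock library, a comparison with no replicate check. In AsPC-1, 4 and 6 of 9 members were at least 2-fold from mock after 1 h and 5 h of EGF, where 17.2 and 19.6% of all genes were, and 5 members at each time of ANG, beside 15.7 and 17.1%. CCND1 was higher, and CDKN1B and CDKN2C lower, in all 4 of these libraries. At 24 h in that line 1 member, CDKN1A, was 2-fold from mock with EGF (2.10; 5.18% of genes) and 0 with ANG (1.46%). In Panc-1, CDKN2C was 2-fold higher after 1 h and 5 h of ANG (1.19 and 1.10; 5.69 and 6.51% of genes) and CDKN1A after 5 h of EGF (1.01; 7.27%). No member reached 2-fold in Panc-1 after 1 h of EGF (5.47% of genes), 24 h of EGF (2.17%) or 24 h of ANG (2.66%).

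Between the lines, AsPC-1 was compared with Panc-1 over the 7 conditions. CDKN1C entered the test through Panc-1 alone, so it is left out of the counts between the lines and given no test. CCND1 and CDK6 were higher in AsPC-1, and CCND3, CDKN2C and CDKN2D lower, so 5 of the other 8 members passed where 68.8% of all genes did. CDKN2C differed by -2.40 ± 0.44 (limma adjusted p = 0.00116) and CDKN2D by -1.22 ± 0.32 (adjusted p = 0.00821), each lower in AsPC-1 in 7 of 7 conditions. CDK6 differed by 0.35 ± 0.09 (adjusted p = 0.00909; 7 of 7), CCND1 by 1.51 ± 0.44 (adjusted p = 0.0144; 6 of 7) and CCND3 by -0.41 ± 0.15 (adjusted p = 0.0424; 5 of 7). The CCND3 call was lost with no filter, with centring, with upper quartile scaling and without any 1 of the 8 libraries of 1 h and 5 h (adjusted p = 0.0517 to 0.107). CDK4, CDKN1A and CDKN1B did not pass (adjusted p = 0.762, 0.716 and 0.193).

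Since early and late libraries stood apart, the lines were also compared within each set, a choice made after the data were seen. The members' values by set were already known, so these fits describe the differences and are no separate support for them. In mock and 24 h libraries, 4 of the 8 members passed beside 68.3% of all genes. CCND1 was then level (0.05 ± 0.08, limma adjusted p = 0.545), as were CCND3 (0.03 ± 0.09, adjusted p = 0.813) and CDKN2D (-0.20 ± 0.10, adjusted p = 0.136) within the threshold. CDK4 (0.50 ± 0.07, adjusted p = 0.00253) and CDKN1B (0.60 ± 0.11, adjusted p = 0.00741) were higher in AsPC-1 in these libraries. CDK6 kept its direction and passed (0.42 ± 0.12, adjusted p = 0.0271), and CDKN2C was lower by -1.0 ± 0.19 (adjusted p = 0.00748).

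In the 1 h and 5 h libraries 7 of the 8 members passed beside 80.2% of all genes. There CCND1 was higher in AsPC-1 by 2.60 ± 0.08 (limma adjusted p = 1.89e-07), and CDK4 (-0.49 ± 0.09, adjusted p = 0.00154) and CDKN1B (-1.43 ± 0.09, adjusted p = 5.82e-06) were lower, the reverse of their order in mock and 24 h cells. CDKN2C was lower by -3.45 ± 0.11 and CDKN2D by -1.99 ± 0.12. CDKN1A did not pass in either set (adjusted p = 0.546 and 0.0709).

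The genes most like each member were sought among all tested genes, by Pearson correlation of log2(RPKM + 1) over the 14 libraries after each line's mean was removed. Because the libraries fall into early and late sets, these correlations mostly restate that division and carry no test. For CDK4 the closest were MCM5 (r = 0.995), MCM4 (0.990) and MCM2 (0.988), subunits of the replicative helicase. MCM5 was at 36.5 RPKM in Panc-1 mock and 79.9 to 100.1 at 1 h and 5 h, and at 33.0 and 5.42 to 16.9 in AsPC-1, a wider swing than that of CDK4. For CDKN2C they were RPA1 and RPA2, subunits of the single-strand DNA binding protein RPA (0.980 each), and BARD1 (0.977), the partner of BRCA1.

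For CDKN2D the closest were the histone genes HIST1H2BH (0.976) and HIST1H2BI (0.975), whose near-identical copies may share reads, and CSNK2B (0.974). For CDKN1A the first was PLAU (0.980), which encodes the plasminogen activator urokinase. PLAU was at 30.3 RPKM in AsPC-1 mock, 89.4, 131 and 77.2 after 1, 5 and 24 h of EGF and 50.8, 63.6 and 27.1 with ANG. ATG16L1 (0.951) and TNFRSF1A (0.944) followed. CCND1 was most like ALS2CL (0.978), HSPA8 and WWC1 (0.977 each), and CDKN1B most like ZNF33B (0.978), ZNRF2 (0.966) and RBM4B (0.961). CCND3 was most like AP2A1 (0.969), ENTPD6 (0.962) and STX2 (0.956), and CDKN1C most like GAS6 (0.927), IFI6 (0.921) and VEZF1 (0.893). For CDK6 the closest were THADA (0.895), NARS2 (0.889) and ANAPC7 (0.861).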

How the data were processed

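Per the file headers, the authors deposited log2 RPKM values for 23040 genes in each of 14 libraries. The submitters' processing notes name the build hg19. Aligner, counter and annotation were not given in the sources used here. Values were returned to RPKM, and the lowest log2 value, -8.966, was read as 0. Depth was estimated from the steps of genes spanning at most 150 bp and limits precision as the report states. Members and gene lists were chosen with earlier results of these data known. Log2(RPKM + 1) of the 13427 genes reaching 1 RPKM in 2 or more libraries was fitted with limma 3.58.1 (R 4.3.3, variance trend), with Benjamini-Hochberg adjustment and a threshold of 0.05. The fold on this scale understates changes of low genes. All libraries shared one estimate of spread, with line, pair or course in the model. These are the only repeats, so p-values measure the spread between these libraries, which may be technical. Named genes are all 10 members, up to 4 per further list by size of change among those called (2 where none was), and the 3 most correlated genes per tested member. E2F4, CCNE1 and SKP2 were named after their values were seen. Alternatives were other pseudocounts (0.1 and 5), filters, scalings, a fit without the trend, and leaving out libraries. The procedure was also run on simulated data. Their noise was drawn independently for each gene and library, so the run cannot speak to spread shared between genes or libraries.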

Additional observations from a re-analysis of the deposited data

Results flagged for a closer look

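For 5 genes the 24 h against 1 h difference depended on the cell line by the limma test of the interaction, AsPC-1 minus Panc-1 on the log2(RPKM + 1) scale. The values were -2.51 for CCND1, 0.81 for CDK4, 2.11 for CDKN1B, 2.33 for CDKN2C and 1.96 for CDKN2D, with adjusted p between 0.000155 and 0.00306. Of all genes 36.0% passed the same test. The mock libraries lay with the 24 h libraries, at a time the labels do not give.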

How the results depend on the processing

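With only genes at 1 RPKM or more in every library, which leaves 6 members and fewer genes to adjust over, CDKN1A passed after 5 h of EGF (1 member, adjusted p = 0.0477) and for EGF against ANG (1 member, adjusted p = 0.0362), and 3 members passed between the lines. CCND3 between the lines turned to 0.025 without the 1 h and 5 h libraries and lost its call with no filter, centring, upper quartile scaling or without any 1 of the 8 libraries of 1 h and 5 h (adjusted p = 0.0517 to 0.107). CCND1 and CDKN2D also lost theirs without the 1 h and 5 h libraries. With 5 h in place of 1 h, 1 member (CCND3) passed for 24 h, and CCND3 passed as line-dependent, as it did without the AsPC-1 library of 24 h of ANG (adjusted p = 0.0349). Of 420 alternative values of 23 estimates, 400 kept direction and call, 13 lost and 6 gained one, and 1 reversed. Leaving out a library changed no count of called members by over 1.5 times. The CCND1, CDK4, CDKN1B, CDKN2C and CDKN2D line dependence held in every alternative that gave a value. With only genes at 1 RPKM or more in every library, CDKN2C and CDKN2D were not tested. Depth limits CCND2, CDKN1C and the AsPC-1 values of CDKN2C.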
